A study of Mus musculus with 10 samples.

Results

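The genes described here are named for the proteins of the cytoplasmic ribosome and were read in mouse lung. They were taken by symbol: the names that begin with Rpl or Rps and a number, the stalk proteins Rplp0 to Rplp2, and Rpsa. The Rps6 kinases and symbols ending in -ps were left out. On the array 63 of the 19505 named genes met this rule, each with 1 probe set. Of these, 31 were proteins of the large subunit, 21 of the small subunit, 3 were Rplp0, Rplp1 and Rpsa, and 8 were second copies of another family member (Rpl3l, Rpl7l1, Rpl10l, Rpl22l1, Rpl32l, Rpl39l, Rps4l and Rps27l). All 63 matched the NCBI gene table by identifier. That table holds 84 protein-coding symbols of this form, of which 62 had a listed probe set. Rps4l, which completes the 63, is in that table but not as a protein-coding gene, so it is not among the 84. The 22 of the 84 without a listed probe set, such as Rps3, Rpl13a and Rplp2, were not analysed here.

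Each ribosome joins a small subunit, which reads the messenger RNA, to a large subunit, which forms the peptide bond. Their proteins are needed in nearly equal amounts, and their messenger RNAs are among the most abundant in most cells. These messages carry a run of pyrimidines at the very 5′ end, the terminal oligopyrimidine tract, through which mTOR and LARP1 control their translation. Ribosomal proteins that are not built into ribosomes, Rpl5 and Rpl11 above all, bind Mdm2 and release p53.

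Lung RNA of male C57BL/6J mice was hybridized to 10 Affymetrix arrays, 2 in each of 5 groups. Per the labels' protocols, each group held 8 mice and treatment lasted 20 days; age is given as 6 weeks in the growth text, while the treatment text says years. One group was never injected and had water alone. Mice of the 4 remaining groups received B16F10 cells, a melanoma line derived from this strain. Of these, one group had water, one had dacarbazine (DTIC), a DNA-alkylating chemotherapy, at a daily 70 mg/kg, and SQ-diEG was given to the last ones at 5 and at 25 mg/kg daily. How cells and compounds were administered was not found in the labels. Whether an array held RNA of 1 mouse or of several is not stated, so each p-value below reflects the spread among these samples alone, and that spread may be technical.

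Every value is a deposited log2 signal. The series text describes a kit and array strips for the 3′ ends of transcripts, whereas the probe set identifiers of the deposited table have the form of a whole-transcript array, and gene names come from the annotation of that table's platform. Whether each value belongs to the gene named beside it was not tested, and every result below rests on that naming. The limit of background was taken as the 95th percentile of each array's 5222 negative-control probe sets, which lay between 10.67 and 11.05. The median of all genes lay between 7.33 and 7.40, and that of the negative controls between 7.56 and 7.74, so most genes were not separated from background. Of 50 listed markers of lung, blood, melanoma, heart and liver cells 41 were on the array, and 0 passed the limit on any array, so the labelled tissue was not visible in its markers at that limit. The red cell list, with 1 of its 5 genes on the array, read 5.71 to 9.11. The other lists averaged 6.25 to 8.85 per array, and the highest single value of any marker was 10.64. In whole lung, fewer cells of a type and less RNA per cell cannot be told apart. A probe set's signal also depends on how well its probes bind, so the order of genes below is an order of signals and not of RNA amounts.

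The start of the transcript is the feature that this family is best known for, so it is shown for 5 genes as examples. Of these, Rpl7a, Rpl38 and Rps6 carry the letters searched for, so the 5 do not stand for the share in the set, given below. RefSeq promoter sequences (build GRCm38.p6) were found for 50 of the 63 genes, and the 30 bases centred on each annotated start were searched for the letters CTTTC, or CTTTT, or else CTCTT, which may overlap. Capitals mark these letters, and the annotated start is base 16 of each line. The windows are chr2:26910792-26910821 (plus strand) for Rpl7a, chr11:114668565-114668594 (plus) for Rpl38, chr4:86857353-86857382 (minus) for Rps6, chr5:115559452-115559481 (plus) for Rplp0 and chr5:65391417-65391446 (minus) for Rpl9.
Rpl7a: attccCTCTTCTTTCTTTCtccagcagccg
Rpl38: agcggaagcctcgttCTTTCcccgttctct
Rps6: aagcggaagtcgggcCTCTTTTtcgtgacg
Rplp0: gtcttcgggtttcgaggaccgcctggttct
Rpl9: acgcagggccctgacggattacaagaacgt
On the sense strand, as printed above, the letters were present in 16 of the 50 genes (32.0%). The share was 11.5% of all 27025 genes in that table and 7.46% of 67 mitochondrial ribosomal protein genes. On the opposite strand the letters were present in 6.0% of the 50 genes and 11.4% of all genes. Rpl38 and Rps6 have their pyrimidine run at the annotated start itself. A match is a description of letters, and a miss says only that these letters are not in the window, since an annotated start can lie some bases from the true one.

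As a group the ribosomal protein genes gave a higher signal than the typical gene on the array. Their median lay above the median of all genes on 9 of 10 arrays, by 0.38 to 0.82 on the log2 scale. The exception was the first uninjected array, where it lay 0.01 below. On that scale their median was 7.36 and 7.73 in uninjected mice, 7.88 and 7.81 in injected mice given water, and 7.83 and 7.82 with DTIC. It was 8.11 and 7.97 with SQ-diEG at 5 mg/kg, and 7.75 and 8.23 at 25 mg/kg. Put as a rank, the median ribosomal protein gene stood between the 49.6th and the 74.8th percentile of all genes. The shift was small beside the range of the negative controls, and the members' median exceeded the negative-control median on 9 arrays.

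**Figure D1:**
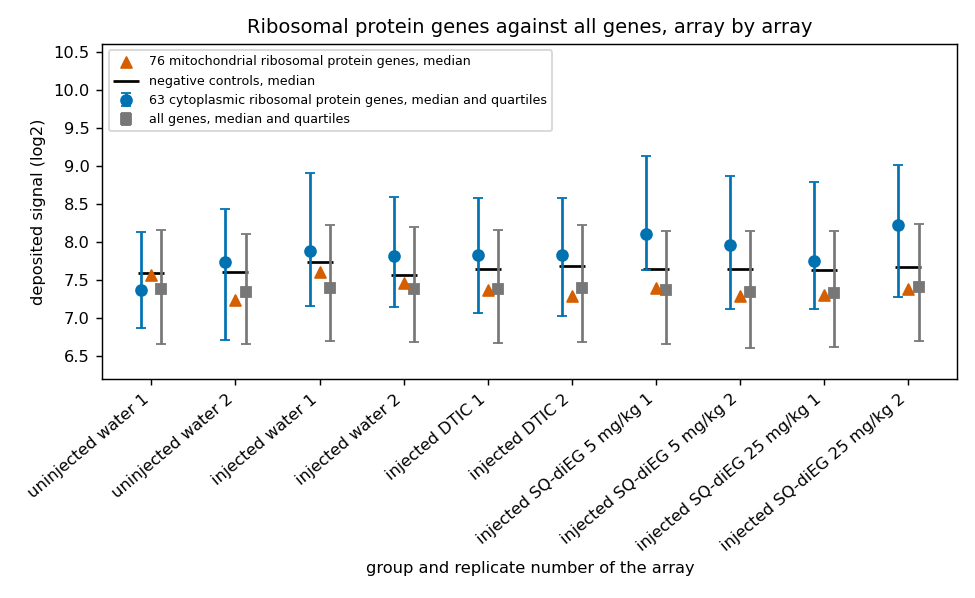
Median and quartiles of the log2 signal of 63 cytoplasmic ribosomal protein genes (circles) and of all genes (squares) on each array, with the medians of 76 mitochondrial ribosomal protein genes (triangles) and of the negative controls (dashes). The circles lie above the squares on 9 of 10 arrays, and the first uninjected array is the exception.

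The mitochondrial ribosomal proteins, which build a separate ribosome for the few proteins encoded in mitochondrial DNA, did not share this position. The median of their 76 genes lay between 7.23 and 7.60 and exceeded that of all genes on 4 of 10 arrays and that of the negative controls on 0. The cytoplasmic set had the higher median on 9 of 10 arrays. Of the 63 cytoplasmic genes, 22 exceeded the gene median on at least 8 arrays, which is 34.9% against a background of 15.9% of all genes and 11 of the 76 mitochondrial ones. At the other end, 2 of the 63 exceeded it on at most 2 arrays, against a background of 15.3%. The share of genes above the median on all 10 arrays was 11.1%, or 7 of 63, against 2.71% of all genes; these were Rpl7a, Rpl29, Rpl9, Rpl11, Rpl35a, Rplp1 and Rpl39l. These are counts over genes that share the same 10 arrays, and no test was made of them.

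Large subunit genes stood higher than small subunit genes. The median of the 31 large subunit genes was 7.70 to 8.47 over the arrays and exceeded the median of all genes on 10 of 10. For the 21 small subunit genes it was 7.04 to 7.75 and exceeded the median of all genes on 7. The large subunit had the higher median on every array. Of the 22 genes above the gene median on at least 8 arrays, 15 belonged to the large subunit and 3 to the small. The stalk proteins Rplp0 and Rplp1, which recruit elongation factors, and Rpsa, also known as the laminin receptor, lay at means of 8.26 to 8.44. Rplp1 ranged from 7.79 to 9.30, and Rpsa had a lowest value of 7.14 and a median of 8.31.

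Rpl7a, a protein of the large subunit, had the highest mean signal of the 63. It read 8.42 and 10.94 in uninjected mice, 11.23 and 11.01 in injected mice given water, and 9.45 and 11.84 with DTIC. With SQ-diEG it read 10.08 and 10.04 at 5 mg/kg and 9.65 and 12.34 at 25 mg/kg. Rpl7a passed the background limit on 5 arrays. Its arrays lay close together in the injected water and the 5 mg/kg groups (SD 0.15 and 0.03, n = 2) and far apart in uninjected mice, with DTIC and at 25 mg/kg (SD 1.78, 1.69 and 1.90, n = 2).

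Rpl29, a large subunit protein that also binds heparin, came next and was the least repeatable of the set. It read 8.89 and 7.85 in uninjected mice, 10.50 and 12.25 in injected mice given water, and 7.55 and 12.85 with DTIC. With SQ-diEG it read 8.73 and 11.40 at 5 mg/kg and 11.22 and 11.37 at 25 mg/kg. Rpl29 thus fell into 2 ranges, below 9 on 4 arrays and above 10 on 6, and the DTIC and the 5 mg/kg group each had an array in both ranges. Those 4 arrays were also the ones with the lowest hybridization controls, which are foreign transcripts spiked in before hybridization. The mean of those controls was 8.47 to 9.22 where Rpl29 lay below 9 and 10.15 to 10.99 where it lay above 10. This coincidence was seen after the values were known, and its part in the differences of Rpl29 was not tested.

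No gene of the set passed the background limit on all 10 arrays, and 56 of the 63 passed it on none. The 7 that passed it at least once make 11.1%, against a background of 2.63% of all genes. Rpl7a and Rpl29, at 5 arrays each, are 3.17% of the set, against 0.0872% of all genes that passed on 5 or more. The others passed on 1 array each: Rpl21, Rpl9, Rpl27 and Rpl22 of the large subunit and Rps29 of the small. Rpl22, known as a binder of viral RNA and for its part in T cell development, passed it only on the first array at 25 mg/kg, with 11.17, and read between 6.53 and 9.77 on the remaining arrays. Ribosomal protein genes have many processed copies in the genome, and probe sequences were not used here, so the share of a signal that comes from such copies was not tested.

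**Figure D2:**
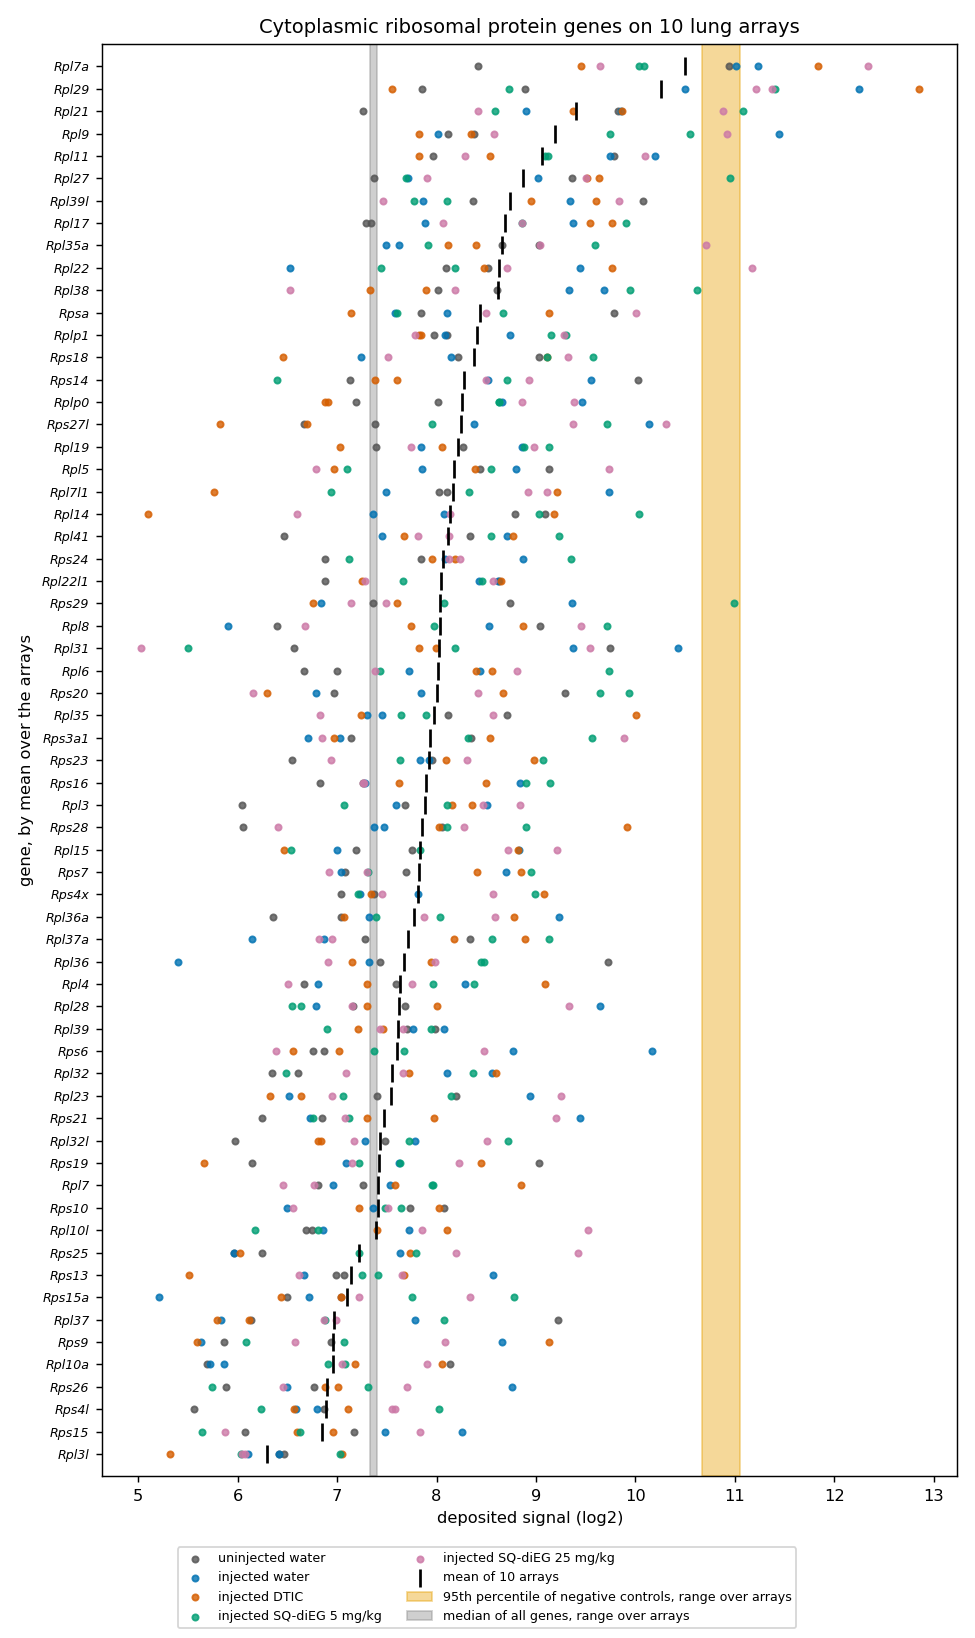
Log2 signal of each of the 63 genes (rows, ordered by mean) on each of 10 arrays (points, coloured by group), with the mean of the 10 arrays as a tick. The grey band is the range of the arrays' gene medians and the orange band the range of their background limits; Rpl7a and Rpl29 are the genes with 5 points above the limit of their own array.

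By mean signal, 5 of the 63 genes lay above 9 (Rpl7a, Rpl29, Rpl21, Rpl9 and Rpl11), 23 between 8 and 9, 28 between 7 and 8, and 7 below 7. Rpl11, which binds Mdm2 together with Rpl5, ranged from 7.83 to 10.20 around a median of 9.11. Rpl5 ranged from 6.79 to 9.73 around a median of 8.41. Rpl32, often used as a reference gene, ranged from 6.34 to 8.60 around 7.69. Rps6, the substrate of S6 kinase, ranged from 6.39 to 10.17 around 7.20. The lowest means were those of Rpl3l (6.30), Rps15 (6.85), Rps4l (6.89) and Rps26 (6.90), all below the median of all genes.

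The 8 second copies did not form a level of their own. Rpl3l, the form of Rpl3 found in heart and skeletal muscle, stayed below the gene median on all 10 arrays and ranged from 5.32 to 7.05; Rpl3 itself ranged from 6.05 to 8.84. Rpl10l, a copy known from testis, read 6.18 to 9.53. Rpl39l, also known from testis, read 7.47 to 10.08 and exceeded the gene median on every array, whereas Rpl39, its parent at the exit of the peptide tunnel, read 6.90 to 8.07. Rpl22l1 ranged from 6.88 to 8.65 and Rpl22 from 6.53 to 11.17. Rpl32l read 5.98 to 8.72 beside 6.34 to 8.60 for Rpl32, Rpl7l1 5.76 to 9.74 beside 6.46 to 8.84 for Rpl7, and Rps4l 5.56 to 8.02 beside 7.04 to 9.08 for Rps4x. Rps27l, a copy of Rps27 that p53 is known to induce, ranged from 5.82 to 10.30. Rpl3l lay below and Rpl39l above the gene median throughout, and the ranges of the other 6 copies spanned it.

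The values repeated poorly from array to array. Over the 63 genes, the Pearson correlation between pairs of arrays had a median of 0.28 and lay between 0.08 and 0.56 in the 45 pairs. Its median was 0.25 within groups and 0.28 between groups; the median absolute difference of a gene was 0.95 within and 1.04 between groups. By group it was 0.17 for uninjected mice, 0.37 for injected mice given water, 0.16 for DTIC, 0.44 for 5 mg/kg and 0.25 for 25 mg/kg. Part of it came from the brightest genes: without Rpl7a and Rpl29 the median over all pairs was 0.19. Over all 19505 genes it was 0.21 and over the mitochondrial set 0.16. These correlations run across genes, which are not independent replicates. A gene's probes are the same on every array, so differences in probe binding between genes can raise a correlation.

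**Figure D3:**
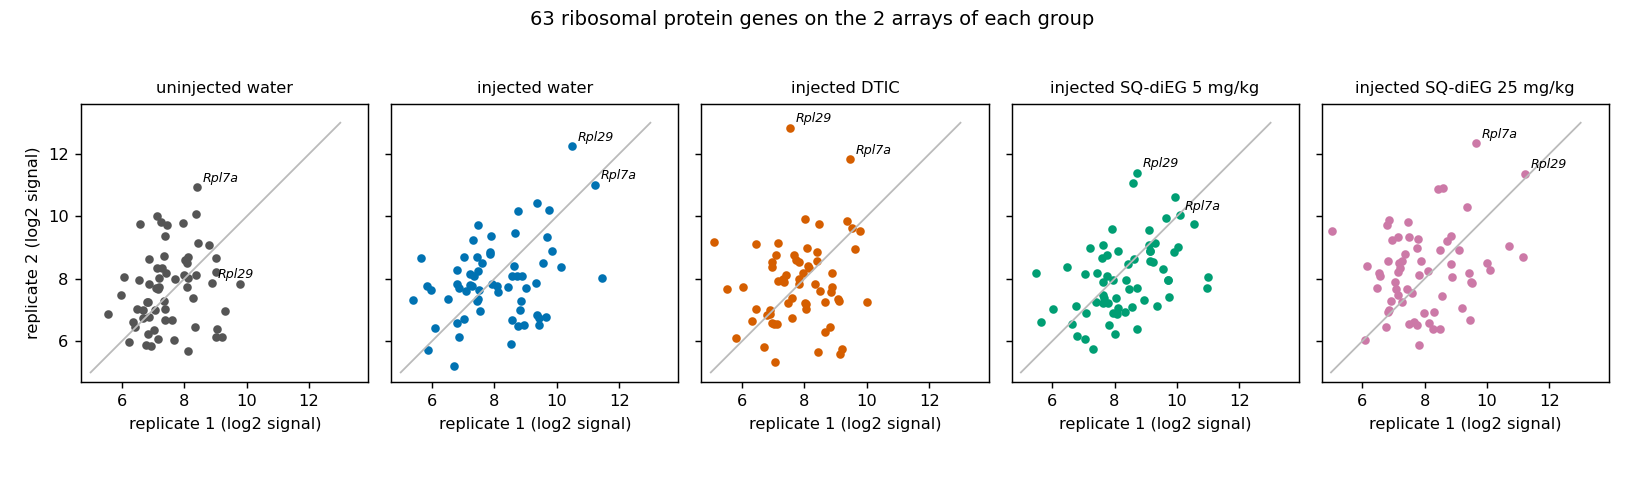
Log2 signal of the 63 genes on replicate 1 (horizontal) and replicate 2 (vertical) of each group, with the line of equality. The points spread widely about the line in every group (Pearson correlation 0.16 to 0.44), and Rpl7a and Rpl29 stand out at the top in most panels.

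Per gene, the standard deviation between arrays of a group, pooled over the 5 groups, had a median of 0.89 on the log2 scale, against 0.91 for all genes. In 49 of the 63 genes (77.8%) it exceeded the standard deviation of the 5 group means, as it did in 76.4% of all genes. A mean of 2 arrays varies less than a single array, so noise alone would put most genes on this side. The count therefore does not weigh differences between groups against the spread between arrays. The steadiest members within groups were Rpl39 (0.37), Rplp0 (0.40), Rpl7 (0.47), Rps10 (0.49) and Rpl37a (0.50). Between groups Rplp0 and Rpl37a were not steady, with a standard deviation of group means of 0.98 and 1.01. The least steady within groups were Rpl29 (1.98), Rpl31 (1.97), Rps9 (1.61), Rpl8 (1.61) and Rpl14 (1.44). Rpl39 is a case of a small range throughout, from 6.90 to 8.07 over all 10 arrays. Rpl31 read 5.03 and 9.54 on the arrays of 25 mg/kg and 5.50 and 8.19 on those of 5 mg/kg, so its group means rest on values far apart.

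Differences between groups were fitted with limma over the 19011 genes that passed a filter on low signals. Of the 63 genes 62 passed; Rpl3l did not. The call was an adjusted p (Benjamini-Hochberg, across all tested genes) below 0.05. In none of the 5 comparisons was a ribosomal protein gene called, and the background was the same, with 0.0% of all genes called in each. The counts at an unadjusted p under 0.05 are given with each comparison. A test for any difference among the 5 groups (limma's F) also called 0 genes; 3 of the 62 had an unadjusted p under 0.05, Rps27l, Rpl38 and Rps6, which is 4.84% against 5.12% of all genes. Standard errors were near 0.97, because limma draws each gene's spread towards a value shared by all genes (prior df 51, residual df 5). They are therefore not a gene's own error. Rpl29, with an SD of 1.98 between arrays of a group, had 1.10, and Rplp0, with 0.40, had 0.93. A difference of 1 standard error is not a limit of error either. In injected against uninjected mice the middle 95% of all genes spanned -1.95 to 2.05.

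**Figure D4:**
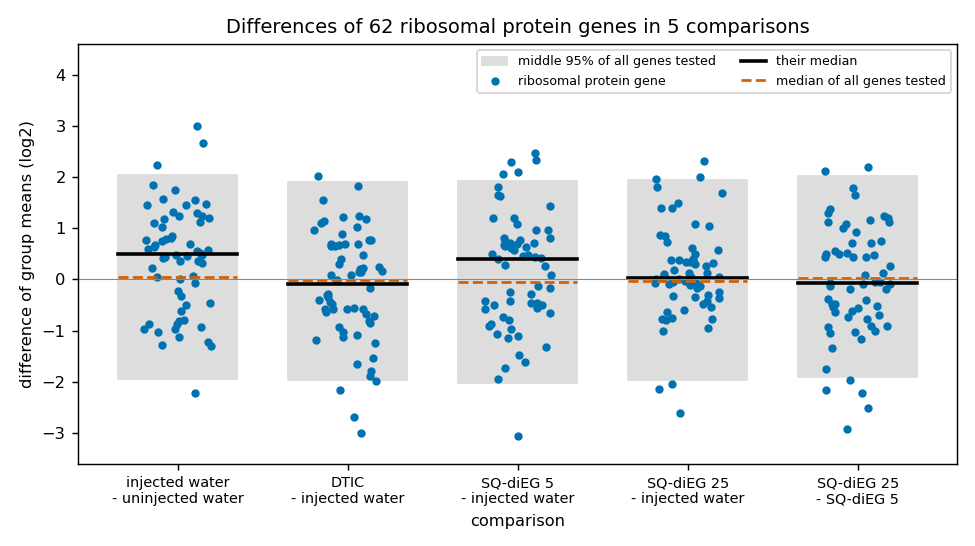
Difference of group means on the log2 scale for 62 ribosomal protein genes (points) in 5 comparisons, with their median (black line), the median of all genes tested (dashed) and the range that holds the middle 95% of all genes tested (grey). Between 4 and 7 points lie outside the grey range in each comparison, and the black line departs most from the dashed line in injected against uninjected mice and at 5 mg/kg.

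The comparison of injected with uninjected mice, both given water, asks what differed in lung RNA after melanoma cells were injected. A response to the cells, the injection itself and RNA of the cells cannot be told apart in this design. Rps6 read 8.77 and 10.17 in injected and 6.86 and 6.76 in uninjected mice. The means of Rps6 were 9.47 ± 0.99 and 6.81 ± 0.07 (SD, n = 2). They differed by 2.66 on the log2 scale (SE 0.96) with no overlap of the groups, but Rps6 was not called (limma, adjusted p = 0.740). Rpl29, with the values given above, averaged 11.37 ± 1.24 against 8.37 ± 0.74 (SD, n = 2; SE of the log2 difference 1.10), again with no overlap. It too was not called (limma, adjusted p = 0.740), and without 1 array the difference lay between 2.13 and 3.88.

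The p53 target Rps27l read 10.13 and 8.38 in injected and 7.38 and 6.67 in uninjected mice, a log2 difference of 2.23 (SE 0.96). Rpl32 read 8.55 and 8.11 against 6.34 and 6.61, a difference of 1.85 (SE 0.95). Rpl36 went the other way, with 5.40 and 7.32 against 7.44 and 9.72, a difference of -2.22 (SE 0.98). These 3 also kept the groups apart and none was called, the smallest adjusted p among them in limma being 0.822.

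Of the 62 genes, 42 were higher and 20 lower in injected mice, or 67.7% higher against 52.2% of all genes. The median log2 difference was 0.50, against 0.05 for all genes. Both injected arrays exceeded both uninjected ones in 14 genes, 22.6% against 18.3% of all genes, and lay below in 8, 12.9% against 16.0%. The unadjusted p was under 0.05 in 4 genes, 6.45% against 5.74%. The median rested in part on single arrays: it was 0.21 without the first injected array given water and 0.25 without the first uninjected array. The hybridization controls averaged 10.28 and 10.99 on the injected and 8.47 and 8.68 on the uninjected arrays, and their part in these differences was not tested.

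The comparison of DTIC with water in injected mice asks what the drug changed. Rps27l read 6.70 and 5.82 with DTIC and 10.13 and 8.38 with water. The means of Rps27l were 6.26 ± 0.62 and 9.25 ± 1.24 (SD, n = 2) and differed by -2.99 on the log2 scale (SE 0.96; limma, adjusted p = 0.919). Rps6 read 7.02 and 6.56 against 8.77 and 10.17, a difference of -2.68 (SE 0.96). In both genes the DTIC arrays lay below both water arrays, but neither was called. This comparison and the one before share the injected arrays given water, so the opposite signs of Rps27l and Rps6 in them are not independent.

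Rplp0, the base of the stalk and a common reference gene, had the second smallest SD of the set between arrays of a group. It read 6.91 and 6.88 with DTIC and 8.66 and 9.46 with water, a difference of -2.16 (SE 0.93). In uninjected mice it read 7.19 and 8.01, and with SQ-diEG 8.63 and 8.63 at 5 mg/kg and 8.86 and 9.38 at 25 mg/kg. The DTIC arrays were thus the lowest of the 10 for Rplp0, although the gene was not called (limma, adjusted p = 0.955).

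Rpl38, known for a part in the translation of Hox messages, differed by -1.90 (SE 0.94) with DTIC, and Rpl37a, of the large subunit, by 2.03 (SE 0.94). Rpl29 differed by -1.17 (SE 1.10) on average, but the DTIC arrays lay on either side of the water arrays, and without the first DTIC array the difference was 1.47. Of the 62 genes 30 were higher and 32 lower with DTIC (48.4% higher, against 49.5% of all genes), and the median was -0.09, against -0.01 for all genes. It lay between -0.15 and -0.03 without 1 array. With DTIC the hybridization controls averaged 9.75, against 10.64 with water, and their part in these differences was not tested. All DTIC arrays lay above in 8 genes, 12.9% against 16.2% of all genes, and below in 11, 17.7% against 16.2%. The unadjusted p was under 0.05 in 5 genes, 8.06% against 4.87%.

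SQ-diEG at 5 mg/kg per day was set against water in injected mice to ask what the compound changed at the lower dose. Rps20, a small subunit protein, read 9.64 and 9.94 with the compound and 6.79 and 7.84 with water, a log2 difference of 2.47 (SE 1.01). Rpl37a read 9.13 and 8.56 against 6.87 and 6.14, a difference of 2.34 (SE 0.94). Rps15a differed by 2.30 (SE 0.95) and Rpl36 by 2.10 (SE 0.98), all with both treated arrays above both water arrays. Rpl31, at 5.50 and 8.19 against 9.38 and 10.43, differed by -3.06 (SE 1.10). Limma gave each of these 5 genes an adjusted p = 0.922, and none was called.

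At this dose 35 of the 62 genes were higher and 27 lower, or 56.5% higher against 48.1% of all genes. The median was 0.40, against -0.05 for all genes, but was 0.03 without the first array at 5 mg/kg and 0.21 without the first injected array given water. At this dose the hybridization controls averaged 9.63, against 10.64 with water, and their part in these differences was not tested. Both treated arrays lay above both water arrays in 17 genes, 27.4% against 15.5% of all genes, and below in 8, 12.9% against 18.0%. The unadjusted p was under 0.05 in 7 genes, 11.3% against 5.29%. Rps6 was among them, at 7.67 and 7.37 with the compound. This comparison shares the injected arrays given water with those above. Genes named again here, such as Rps6, Rpl36 and Rpl37a, are therefore not independent of them.

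SQ-diEG at 25 mg/kg per day was compared with the same water arrays, so genes named again, such as Rps6, Rpl31 and Rpl38, are not independent. Rpl35a, of the large subunit and one of the genes mutated in Diamond-Blackfan anaemia, read 10.71 and 9.04 with the compound and 7.49 and 7.63 with water. Its log2 difference was 2.32 (SE 0.95; limma, adjusted p = 0.941). Rps25, which takes part in initiation at internal entry sites, differed by 2.01 (SE 0.96). Rpl38 read 6.53 and 8.19 against 9.68 and 9.34, a difference of -2.15 (SE 0.94), and Rps6 8.48 and 6.39 against 8.77 and 10.17, a difference of -2.04 (SE 0.96). In these 4 genes the groups did not overlap. Rpl31 differed by -2.62 (SE 1.10) with treated arrays at 5.03 and 9.54, of which the upper lay between the water arrays. Without the first array at 25 mg/kg that difference was -0.36.

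Across the set at the higher dose, 35 genes were higher and 27 lower (56.5% higher, against 49.1% of all genes), and the median was 0.03, against -0.02 for all genes. It was 0.31 without the first array at 25 mg/kg and -0.19 without the second. Both treated arrays lay above in 7 genes, 11.3% against 16.6% of all genes, and below in 6, 9.68% against 16.8%. The unadjusted p was under 0.05 in 5 genes, 8.06% against 5.24%, and none was called.

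The doses were also compared directly, on arrays already used above, so Rpl38 and Rps20 are not independent of the comparisons with water. Rpl38 read 6.53 and 8.19 at 25 mg/kg and 9.94 and 10.62 at 5 mg/kg. Its means were 7.36 ± 1.17 and 10.28 ± 0.48 (SD, n = 2), a log2 difference of -2.92 (SE 0.94; limma, adjusted p = 0.909). Rps20 read 6.16 and 8.41 against 9.64 and 9.94, a difference of -2.51 (SE 1.01). Rps29 read 7.14 and 7.49 against 10.99 and 8.07, a difference of -2.21 (SE 1.01) that was -0.75 without the first array at 5 mg/kg. Rpl14 differed by -2.17 (SE 1.02) and Rpl10l by 2.20 (SE 0.95). The doses did not overlap in any of these 5 genes, yet none was called.

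Over the set 28 genes were higher and 34 lower at 25 mg/kg (45.2% higher, against 51.1% of all genes), and the median was -0.08, against 0.03 for all genes. It lay between -0.26 and 0.24 without 1 array. Mean hybridization controls were 10.59 at 25 mg/kg and 9.63 at 5 mg/kg, and their part in these differences was not tested. All arrays at 25 mg/kg lay above those at 5 mg/kg in 8 genes, 12.9% against 17.7% of all genes, and below in 11, 17.7% against 15.8%. The unadjusted p was under 0.05 in 7 genes, 11.3% against 5.17%. Rpl7a differed by 0.93 (SE 1.01) and Rpl29 by 1.23 (SE 1.10) between the doses, in both cases with overlapping arrays.

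**Figure D5:**
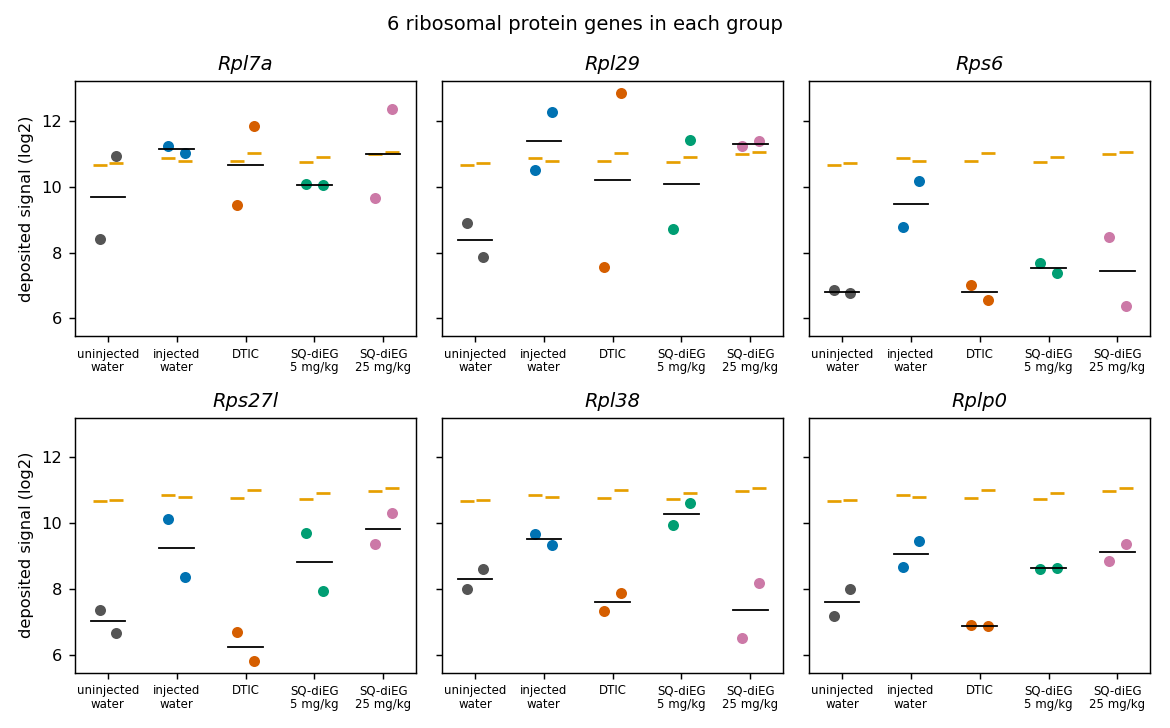
Log2 signal of Rpl7a, Rpl29, Rps6, Rps27l, Rpl38 and Rplp0 on both arrays of each group (points) with the group mean (black line) and each array's background limit (orange dash). Rps6, Rps27l, Rpl38 and Rplp0 lie below the limit on every array, and the arrays of one group differ by as much as 5.29 in Rpl29.

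Genes that work beside the ribosomal proteins were read in the same way. In translation factors and other products with 5′ oligopyrimidine messages, 14 of 15 listed genes were on the array, and their median lay between 7.83 and 8.59 and above that of all genes on 10 of 10 arrays. Eef1a1, the factor that delivers transfer RNA, passed the background limit on 2 arrays and ranged from 8.24 to 11.82. In ribosome biogenesis and RNA polymerase I, 23 of 26 genes were on the array, with a median of 7.34 to 8.38 that exceeded that of all genes on 9 arrays. Gar1, of the pseudouridylation complex, ranged from 8.08 to 11.85 and passed the limit on 2. For the controllers of ribosomal protein translation, such as Mtor, Larp1 and Myc, 14 genes of 16 had a median above that of all genes on 5 arrays. The ribosomal protein fusion gene Fau and Rpl36al, the 2 of 4 on the array that fall outside the naming rule, exceeded it together on 3.

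In injected against uninjected mice, 6 of the 14 oligopyrimidine genes were higher and 8 lower (median -0.38), against 12 and 11 of the 23 biogenesis genes (median 0.11). The controllers had 6 higher and 8 lower (median -0.42), and the mitochondrial ribosomal proteins 41 and 34 of 75 tested (median 0.16). The nucleolar protein Npm1, which is in 2 of these lists, read 10.64 and 9.42 in injected and 6.92 and 6.60 in uninjected mice. Its log2 difference was 3.27 (SE 0.97; limma, adjusted p = 0.720). With DTIC against water Npm1 differed by -2.36 (SE 0.97), on the same water arrays.

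With DTIC the oligopyrimidine genes had 8 higher and 6 lower (median 0.13), the biogenesis genes 12 and 11 (median 0.04), the controllers 8 and 6 (median 0.11) and the mitochondrial set 35 and 40 (median -0.11). At 5 mg/kg the medians were 0.31, 0.23, 0.39 and -0.10 in the same order, and at 25 mg/kg 0.29, -0.09, 0.35 and -0.34. At 5 mg/kg the methyltransferase Nop2 read 9.80 and 9.12 against 5.46 and 7.28 with water, a log2 difference of 3.09 (SE 0.97). Myc, which drives ribosomal protein transcription, differed by -2.39 (SE 0.96) there. At 25 mg/kg Larp1 differed by -2.17 (SE 1.03). None of these genes, and no member of the 5 lists in any comparison, was called by limma at an adjusted p under 0.05.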

How the data were processed

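Lung RNA was measured on 10 arrays in 5 groups, taken from the sample titles. Per the submitters' processing notes, the authors used Affymetrix Expression Console, Transcriptome Analysis Console and RMA. Versions, the tools' roles and genome build were not given in the sources used here. Deposited values are log2 signals, 1 per probe set and array, and were used as deposited. Of 28846 probe sets, 6640 were controls, 19572 had 1 gene symbol in the platform annotation, 0 had several and 2634 had none there. Where a gene had several probe sets the brightest on average was kept; all 63 members had 1. Genes reaching their array's 40th percentile on at least 2 arrays were tested. A group-means model over all arrays was fitted with limma 3.58.1 (R 4.3.3, lmFit and eBayes with default prior) and adjusted by Benjamini-Hochberg. The number of arrays, 2 a group, limits the precision. The code was tested on simulated data. The members, gene lists and tests were chosen with earlier results of these data known, and the letters searched at the starts after the data were seen. Genes were named by rule: the 5 smallest p in each comparison, those above background on every array, the 5 steadiest and least steady, the second copies with their parents, Rps6, Rplp0, Rpl32, Rpl5, Rpl11 and Rpsa in any case, and at most 2 genes of each other list by p. Others, such as those above background on some arrays, were named after their values were seen.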

Additional observations from a re-analysis of the deposited data

How the results depend on the processing

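No gene and no ribosomal protein gene was called by limma (adjusted p under 0.05) in any comparison under quantile normalization, median centring, no filter, a filter at the 60th percentile, averaged probe sets, eBayes with trend and robust, a fit of the compared groups alone, or without any 1 array. At an unadjusted p under 0.05, 925 to 1092 genes passed in the model as reported. With replicate number as a block the count of called members was also 0. Over all genes tested, same-numbered arrays did not deviate together (correlation -0.02 to 0.05 over 10 pairs of groups). Most genes lay near background, so this cannot settle whether the numbers pair the samples. The hybridization controls averaged lower on replicate 1 than on replicate 2 in every group, for example 9.22 and 10.28 with DTIC. A shared run of same-numbered arrays was looked at only through the block and the correlations above, which cannot settle it either. For the named genes, only quantile normalization, median centring or leaving out an array could change a difference of group means. Of 408 values of named genes under these alternatives, 401 kept their direction, many because the setting could not alter it. The 7 that did not came from leaving out 1 array, and the ranges without 1 array were -3.82 to 1.47 (DTIC), -2.65 to 0.0239 (5 mg/kg), -0.96 to 0.79 (25 mg/kg) and -0.11 to 2.57 (25 against 5 mg/kg) for Rpl29. For Rpl7a they were -1.67 to 0.71 (DTIC), -1.47 to 1.21 (25 mg/kg) and -0.41 to 2.28 (25 against 5 mg/kg). The median difference of the set ranged from 0.21 to 0.60 for injection, -0.15 to -0.03 with DTIC, 0.0315 to 0.32 at 5 mg/kg, -0.19 to 0.31 at 25 mg/kg and -0.26 to 0.24 between doses when 1 array was left out. Under the other settings it lay between 0.45 and 0.50 for injection, -0.09 and -0.0028 with DTIC, 0.39 and 0.47 at 5 mg/kg, 0.02 and 0.06 at 25 mg/kg and -0.12 and -0.08 between doses. Against the 99th percentile of the negative controls, 0 genes passed on every array and 63 on none. Against the highest background probe set of each array, 7.67 to 8.54, 1 gene passed on every array (Rpl7a) and 2 on none (Rpl3l and Rpl10a). The signal, near background for 56 of 63 genes, and 2 arrays a group limit what could be detected.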
